A study of Mus musculus with 16 samples.

Results

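The signals by which the intestinal epithelium attracts and maintains lymphocytes were examined in the developing mouse jejunum and ileum through 7 genes, namely the chemokine genes Ccl25, Ccl28 and Ccl20, the B cell cytokine genes Tnfsf13 and Tnfsf13b, and the interleukin genes Il15 and Il18. The 7 genes were chosen by name, with earlier results of these data known. All 7 were among the 24421 genes of the deposited count files and among the 13429 genes with enough counts to be tested. The data were bulk RNA sequencing of epithelial cells that had been released with EDTA from the jejunum and the ileum of wild-type C57BL6/J mice, 4 at P6 (postnatal day 6) and 4 at P36, with 2 females and 2 males at each age. The 8 mice each supplied both segments, so that the 16 libraries formed 4 groups of 4 (P6 jejunum, P6 ileum, P36 jejunum and P36 ileum). Replicates 1 and 2 were female and replicates 3 and 4 male, and a replicate number stands for the same mouse in both segments of an age. The cells were not sorted, and the P36 tissue was kept in EDTA as long as or longer than the P6 tissue, so age and the release procedure cannot be told apart fully.

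CCL25 is made by the small intestinal epithelium and binds CCR9, which draws T cells and IgA-producing plasma cells to the small intestine. CCL28 is a mucosal chemokine that binds CCR10 and CCR3, and CCL20 binds CCR6 and is best known from the epithelium that covers lymphoid follicles. The products of Tnfsf13 (APRIL) and Tnfsf13b (BAFF) are survival factors for B cells and plasma cells. IL-15, which cells present on IL-15Rα, maintains intraepithelial lymphocytes, and IL-18 is stored as a precursor that inflammasome-activated caspase-1 cleaves.

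Library totals lay between 12159237 and 25947276 counts, and levels are given as CPM, the count scaled to a library size of 1000000 after correction by TMM (trimmed mean of M values) factors. Epithelial markers were found in every library: the summed level of 7 genes, Epcam and Cdh1 among them, was between 4020 and 17062 CPM. No threshold was set for this sum. Several libraries stood apart from their group. P6 ileum replicate 2 carried 399 CPM of 9 stromal and smooth muscle markers, against 5.75 to 62.2 CPM in the other 15 libraries, and P6 ileum replicate 4 had the lowest epithelial sum. The 14 T cell markers summed to 120 and 163 CPM in P36 jejunum replicates 1 and 3 and to between 5.53 and 23.2 CPM in the other 14 libraries. The 7 B and plasma cell markers summed to at most 3.48 CPM in the P6 libraries and to between 6.18 and 81.8 CPM in the P36 libraries, with P36 jejunum replicate 3 the highest. At P6 the mice carried 2 identifier stems, L41800 (replicates 1 and 3) and L42150 (replicates 2 and 4), which differed in genes such as Cd14 (12.3 to 16.8 against 0.392 to 0.991 CPM). Because these were bulk libraries, fewer cells of a type and less RNA per cell cannot be told apart in any value below.

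The 250 bases upstream of the annotated start are shown for the 3 chemokine genes, which bind different receptors, with the motifs found by script in capitals (RefSeq, GRCm38.p6; plus strand for all 3). The Ccl25 window is that of an internal start at chr8:4349338-4349587, the Ccl28 window is chr13:119623569-119623818 and the Ccl20 window is chr1:83116516-83116765.
Ccl25: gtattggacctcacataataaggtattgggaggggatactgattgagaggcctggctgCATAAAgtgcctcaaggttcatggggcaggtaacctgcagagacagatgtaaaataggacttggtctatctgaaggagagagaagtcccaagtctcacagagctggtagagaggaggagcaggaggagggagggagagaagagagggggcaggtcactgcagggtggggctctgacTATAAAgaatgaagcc
Ccl28: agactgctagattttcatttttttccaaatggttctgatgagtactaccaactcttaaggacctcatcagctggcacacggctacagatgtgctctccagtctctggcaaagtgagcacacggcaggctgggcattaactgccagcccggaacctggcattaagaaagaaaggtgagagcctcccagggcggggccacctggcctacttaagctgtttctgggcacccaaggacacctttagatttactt
Ccl20: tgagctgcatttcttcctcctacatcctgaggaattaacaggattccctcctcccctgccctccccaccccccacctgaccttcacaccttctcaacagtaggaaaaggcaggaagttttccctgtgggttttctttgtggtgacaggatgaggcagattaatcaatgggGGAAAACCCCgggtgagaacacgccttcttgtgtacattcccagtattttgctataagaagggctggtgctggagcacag

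Motifs were searched on both strands by their letters. TTTATG stood for the caudal type homeobox factors. AGATAA stood for GATA factors. A repeat of GAAA, with any 2 bases between the copies, stood for interferon regulatory factors. TATAAA stood for the TATA box, and the NF-kB consensus was searched as well. In the Ccl25 window the capitals mark the letters of the caudal motif on the minus strand, 192 to 187 bases before the start, and the letters TATAAA 16 to 11 bases before it. Of all 32851 RefSeq windows of this length, 10.8% held the first and 12.4% the second. The Ccl20 window held a match to the NF-kB consensus on the minus strand, 80 to 71 bases before the start, which 7.25% of all windows also held. The Ccl28 window held none of the letters searched, nor did a second Ccl25 window at the outer start of the counted gene (chr8:4324960-4325209), which is not printed. These matches describe the sequence only.

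With age the epithelial signals mostly rose. Ccl25, Ccl28, Tnfsf13, Il15 and Il18, 5 of the 7, exceeded their P6 level in the P36 jejunum and none fell short of it. In this comparison 51.6% of all tested genes were called, 24.7% as higher and 26.9% as lower at P36. In the ileum, 6 genes were higher at P36 and Ccl20 was lower, where 55.7% of all tested genes were called, 25.5% as higher and 30.1% as lower. Calls are those of edgeR's quasi-likelihood test with an adjusted p below 0.05 (Benjamini-Hochberg over all tested genes). The median log2 fold change of the 7 genes with age was 2.26 in the jejunum and 2.23 in the ileum, while the medians over all tested genes were -0.01 and -0.03. The age comparisons of the 2 segments come from the same mice and are not independent of each other.

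Between the segments, every call among the 7 in the main fit was towards the jejunum. At P6, Ccl25, Tnfsf13 and Tnfsf13b were higher in the jejunum than in the ileum, beside 25.9% of all tested genes called in this comparison with 11.1% higher and 14.8% lower in the jejunum. At P36, Ccl25, Il15 and Il18 were higher in the jejunum, beside 16.1% called, 8.30% higher and 7.80% lower there. The region-by-age interaction (the jejunum-minus-ileum difference at P36 minus that at P6) was called for Ccl20 (positive) and Tnfsf13 (negative), beside 8.69% of all tested genes, 5.01% positive and 3.68% negative. If a log2 fold change beyond 2 was required as well, the rule of the study, 1 of the 7 genes differed between the segments at P6 (6.50% of all tested genes), 0 at P36 (3.60%), and 4 with age in each segment (16.4% in both). Both interaction calls lay close to the threshold and were lost in most of the fits that left out 1 library. The calls above come from a fit that did not pair the segments of a mouse. With the mouse as a block, the interaction of Tnfsf13 was lost and that of Il18 was called. The block also added the regional calls of Il18 at P6 and Ccl20 at P36, both towards the jejunum. Other settings added P6 calls towards the ileum. Library totals in place of TMM added Ccl28 (log2 -0.63) and Ccl20 (log2 -1.25). Ccl28 was also called without P6 ileum replicate 2 (log2 -0.50), and Ccl20 with only the 8 P6 libraries (log2 -0.97).

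**Figure D1:**
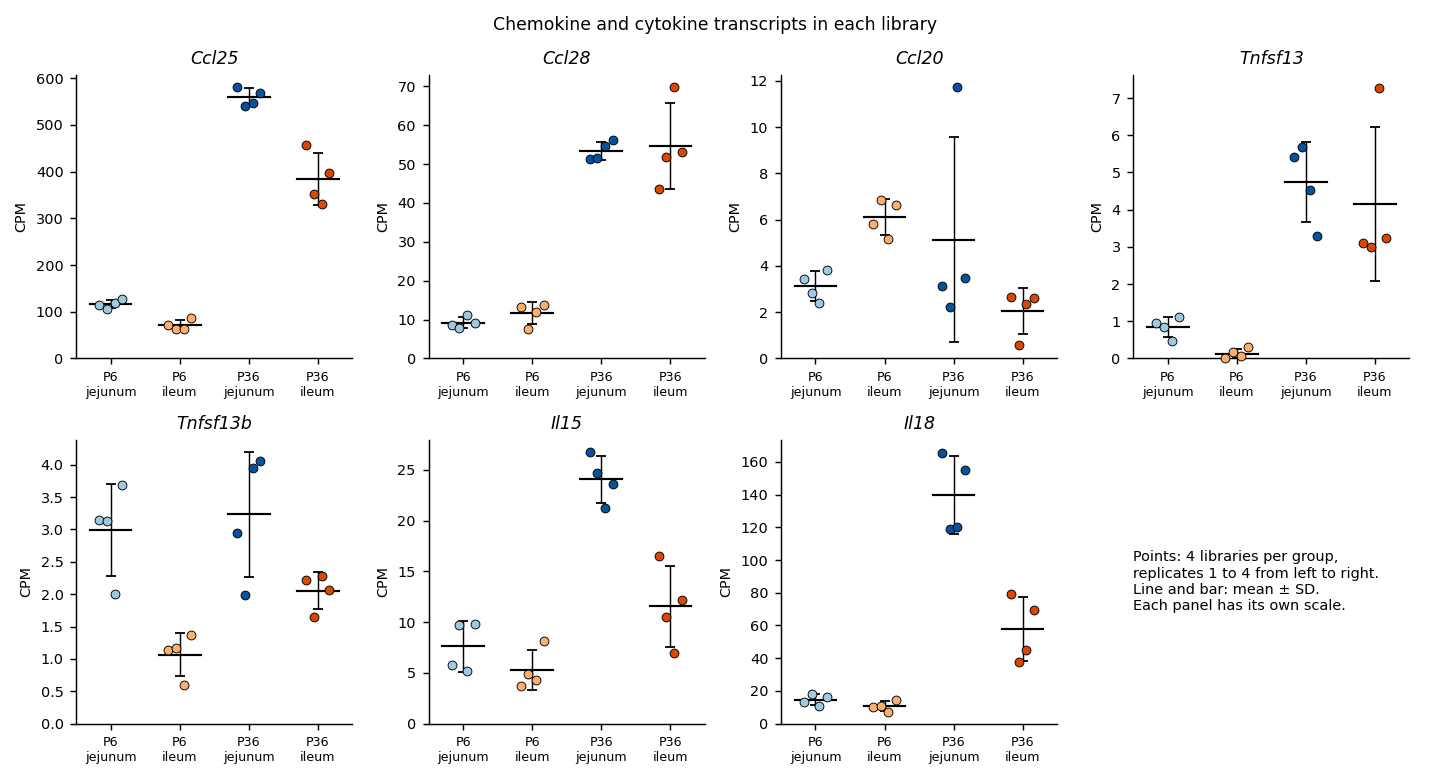
CPM of the 7 genes in each of the 16 libraries, by group (x axis) on a separate linear CPM scale per gene (y axis), with points for the 4 libraries and a line and bar for the mean ± SD. Ccl25, Ccl28, Tnfsf13 and Il18 lie higher in all 8 P36 libraries than in all 8 P6 libraries, while 1 P36 jejunum library lies far above the others for Ccl20.

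**Figure D2:**
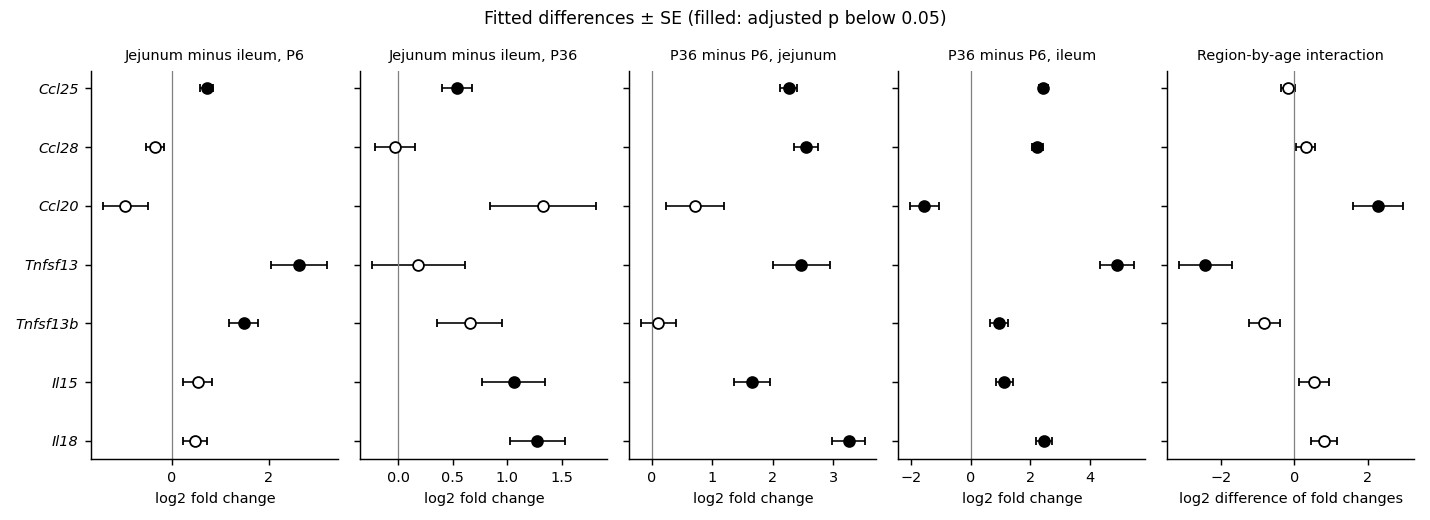
Fitted log2 differences ± SE (x axis, a separate scale per panel) of the 7 genes (y axis) in the 4 comparisons and the region-by-age interaction, with filled points where the adjusted p of edgeR's quasi-likelihood test is below 0.05. The filled points number 3 and 3 for the segments at P6 and P36, 5 and 7 for age in the jejunum and the ileum, and 2 for the interaction.

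The genes differed widely in level. Per kilobase of counted exon in the P36 jejunum, Ccl25 stood at 439 ± 15.3 CPM per kb (SD, n = 4), Il18 at 162 ± 27.6, Il15 at 18.7 ± 1.81, Ccl28 at 14.3 ± 0.637, Ccl20 at 6.39 ± 5.52, Tnfsf13 at 2.82 ± 0.640 and Tnfsf13b at 1.90 ± 0.571 CPM per kb. The median over all tested genes in that group was 7.04 CPM per kb. Ccl25 was above 98.6% of tested genes in the P36 jejunum and above 90.9% in the P6 ileum, its lowest group. Il18 moved from above 62.6% of tested genes in the P6 ileum to above 96.1% in the P36 jejunum. For the pair of B cell cytokine genes, at most 33.3% of tested genes lay below them in any group. The rank of Tnfsf13 uses its whole exon length, 74.7% of which an overlapping gene shares.

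Ccl25 (chr8:4325210-4360020, plus strand, mm10; 8 exon blocks and 1274 bases of counted exon) was the most abundant of the 7 and fell into 4 separate levels. In the jejunum it stood at 115, 106, 118 and 128 CPM at P6 and at 582, 540, 546 and 569 CPM at P36 (replicates 1 to 4). In the ileum it stood at 72.4, 62.5, 62.1 and 87.3 CPM at P6 and at 456, 353, 331 and 397 CPM at P36. No 2 groups overlapped: the lowest P36 library lay above every P6 library, and the lowest jejunal library above every ileal library of the same age. From P6 to P36 the level rose 4.79-fold in the jejunum (log2 2.26 ± 0.14 SE, adjusted p = 2.75e-09) and 5.41-fold in the ileum (log2 2.44 ± 0.14, adjusted p = 1.51e-09). The jejunum exceeded the ileum 1.64-fold at P6 (log2 0.72 ± 0.14, adjusted p = 0.00121) and 1.45-fold at P36 (log2 0.54 ± 0.14, adjusted p = 0.0130), in 4 of 4 mice at each age. The interaction of log2 -0.17 ± 0.19 did not pass (adjusted p = 0.623). All 4 calls of Ccl25 were kept in the 16 fits that left out 1 library each. Without P36 jejunum replicates 1 and 3, the libraries with many T cell markers, the P36 regional difference was log2 0.56 with an adjusted p of 0.0823. With only the P6 mice of stem L42150 the P6 difference was log2 0.64 (adjusted p = 0.0808).

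Ccr9, the receptor of CCL25, was found at 1.17 to 2.69 CPM in the P36 jejunum and at 0.302 to 1.47 CPM in the other 3 groups. It was higher at P36 than at P6 in the jejunum (log2 1.84 ± 0.46, adjusted p = 0.00359), and the ileal value was log2 0.46 ± 0.46 (adjusted p = 0.415). The interaction of Ccr9 did not pass (log2 1.38 ± 0.65, adjusted p = 0.218), so the age effects of the segments are not shown to differ. All 10 tested T cell markers were also higher at P36 in the jejunum, and 1 of the 10 in the ileum. The shares of all tested genes higher at P36 were 24.7% and 25.5%. Cd8b1 was at 0 CPM in every P6 jejunum library and passed the filter through other groups, so its jejunal call could only be upward. The 14 T cell markers summed to 120 and 163 CPM in P36 jejunum replicates 1 and 3. They summed to 14.2 and 21.5 CPM in replicates 2 and 4 and to 6.46 to 14.1 CPM in the P6 jejunum. The count of 10 is therefore no measure of the list. The part of T cells in the Ccr9 values was not tested.

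Ccl28 (chr13:119623819-119654358, plus strand; 3739 bases of counted exon) rose with age as Ccl25 did but with no called difference between the segments. The P6 levels were 8.68, 7.76, 11.1 and 9.00 CPM in the jejunum and 13.2, 7.67, 11.8 and 13.8 CPM in the ileum. The P36 levels were 51.3, 51.5, 54.7 and 56.1 CPM in the jejunum and 43.6, 51.7, 69.9 and 53.0 CPM in the ileum. The ages were separate in both segments, and the segments overlapped at both ages. The rise was 5.84-fold in the jejunum (log2 2.55 ± 0.19, adjusted p = 2.13e-08) and 4.69-fold in the ileum (log2 2.23 ± 0.19, adjusted p = 8.85e-08). The jejunum-minus-ileum difference was log2 -0.35 ± 0.19 at P6 (adjusted p = 0.187) and log2 -0.03 ± 0.18 at P36 (adjusted p = 0.939). Scaling by library totals in place of TMM gave log2 -0.63 at P6 (adjusted p = 0.0292), and leaving out P6 ileum replicate 2, the stromal library, gave log2 -0.50 (adjusted p = 0.0350).

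The receptors of CCL28 were nearly absent from the libraries. Ccr10 had 0 counts in all 8 P6 libraries, 1 count over the P36 jejunum and 4 counts over the P36 ileum, and Ccr3 had at most 6 counts in any group. A count of 0 allows up to 3 counts, or 0.116 to 0.247 CPM by library total, for counting error only. Neither gene passed the filter on low counts. The scavenging receptors of chemokines, Ackr4 and Ackr2, also stayed under the filter, with at most 0.340 CPM in any library.

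Ccl20 (chr1:83116766-83119167, plus strand; 802 bases of counted exon) was the exception to the rise with age. At P6 it stood at 3.45, 2.81, 2.42 and 3.83 CPM in the jejunum and at 5.82, 6.85, 5.15 and 6.62 CPM in the ileum. At P36 it stood at 3.12, 2.21, 11.7 and 3.46 CPM in the jejunum and at 2.65, 0.567, 2.37 and 2.61 CPM in the ileum. The P6 ileum lay above the P6 jejunum and above the P36 ileum without overlap, and 1 library, P36 jejunum replicate 3, held the highest value of all. In the ileum Ccl20 fell with age to 0.335 of its P6 level (log2 -1.58 ± 0.49, adjusted p = 0.0121), a call kept in all 16 fits without 1 library. With only the P6 mice of stem L41800 it was log2 -1.42 with an adjusted p of 0.0741. In the jejunum the change was log2 0.72 ± 0.47 (adjusted p = 0.223), and log2 -0.02 without P36 jejunum replicate 3 (adjusted p = 0.977).

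The regional difference in Ccl20 pointed to the ileum at P6 and the jejunum at P36, with neither called in the main fit. At P6 the ileum was higher in 4 of 4 mice, with a jejunum-minus-ileum difference of log2 -0.97 ± 0.47 that missed the threshold (adjusted p = 0.149). At P36 the jejunum was higher in 4 of 4 mice, with log2 1.33 ± 0.49 that also missed the threshold (adjusted p = 0.0785). The within-mouse log2 CPM differences at P36 were 0.23, 1.79, 2.26 and 0.39 (replicates 1 to 4). Over the 16 fits without 1 library, the fitted P36 difference fell as low as log2 0.54, with adjusted p-values up to 0.405. With the mouse as a block the P36 difference was log2 1.21 and passed (adjusted p = 0.0459), as it did in DESeq2 (log2 1.32, adjusted p = 0.0367) and without P36 jejunum replicate 2 (log2 1.58, adjusted p = 0.0452). Fitting only the 8 P6 libraries gave log2 -0.97 with an adjusted p of 0.0117. The interaction was log2 2.29 ± 0.68 (adjusted p = 0.0470), passed in 4 of the 16 fits without 1 library (those without P36 ileum replicate 1, P36 jejunum replicate 2 or P6 ileum replicates 3 or 4) and fell to log2 1.50 without P36 jejunum replicate 3 (adjusted p = 0.0995). That library also held the highest sums of T cell markers (163 CPM) and of B and plasma cell markers (81.8 CPM). The part of these cells in its Ccl20 value was not tested.

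**Figure D3:**
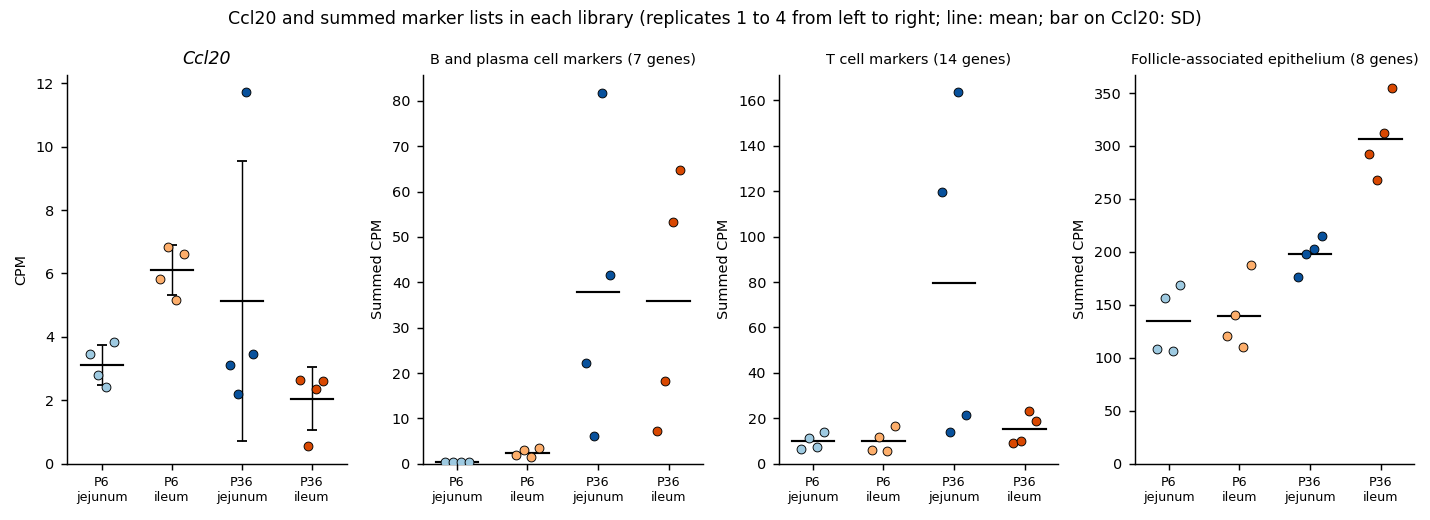
Ccl20 in CPM and the summed CPM of the B and plasma cell, T cell and follicle-associated epithelium marker lists (y axes, linear) in each of the 16 libraries by group (x axes), with points for the 4 libraries, a line for the mean and, for Ccl20, a bar for the SD. P36 jejunum replicate 3 is highest for Ccl20, for the B cell list and for the T cell list. The sum of the follicle-associated list is highest in the P36 ileum, where Pglyrp1 is its largest part.

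Markers of follicle-associated epithelium and M cells were measured beside Ccl20. The 8 markers summed to 268 to 355 CPM in the P36 ileum, where Ccl20 was lowest, and to 177 to 215 CPM in the P36 jejunum. Pglyrp1 was the largest part of these sums, at 154 to 202 CPM in the P36 ileum and 90.9 to 108 CPM in the P36 jejunum. Gp2 and Sox8 reached at most 2.37 and 0.327 CPM in any library. The sum is therefore no measure of how much follicle-associated epithelium a library held. Spib, a transcription factor of M cells, stood at 2.91 to 6.87 CPM in the P36 jejunum and at 3.52 to 13.2 CPM in the P36 ileum, while Gp2, a receptor on mature M cells, was at 0 in all 4 P6 jejunum libraries. Of the 7 tested markers, 3 were higher and 0 lower at P36 in the ileum, and 4 were higher and 1 lower in the jejunum. Over all tested genes 25.5% were higher and 30.1% lower in the ileum, and 24.7% and 26.9% in the jejunum. Ccr6, the receptor of CCL20, had 0 counts in the 4 P6 jejunum libraries and reached 1.12 CPM in the P36 jejunum, where it was called higher than at P6 (adjusted p = 0.00876). In the ileum Ccr6 ranged from 0.0494 to 0.434 CPM at P6 and from 0.0553 to 1.51 CPM at P36 and did not pass (adjusted p = 0.102).

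Tnfsf13, which encodes APRIL (chr11:69682577-69685554, minus strand), rose in both segments from a low P6 level. At P6 it stood at 0.960, 0.848, 0.473 and 1.10 CPM in the jejunum and at 0, 0.172, 0.0542 and 0.294 CPM in the ileum, where the 4 libraries held 11 counts in all. At P36 it stood at 5.41, 5.69, 4.53 and 3.30 CPM in the jejunum and at 3.10, 3.01, 7.27 and 3.24 CPM in the ileum. The P6 segments were separate, the P36 segments overlapped, and P36 ileum replicate 3 lay above all other libraries. The age difference was log2 2.47 ± 0.47 in the jejunum (5.55-fold, adjusted p = 0.000340) and log2 4.91 ± 0.57 in the ileum (adjusted p = 2.65e-06), the latter resting on those 11 counts. The jejunum exceeded the ileum at P6 by log2 2.62 ± 0.58 (adjusted p = 0.00352), in 4 of 4 mice. These low counts make the size of both values uncertain. Leaving out 1 library moved the P6 difference between log2 2.21 (without P6 ileum replicate 1) and 3.32 (without P6 ileum replicate 4), and the ileal age difference between 4.50 (without P36 ileum replicate 3) and 5.61 (without P6 ileum replicate 4). Over the 4 alternatives added after the data had been seen, they ran from log2 2.04 to 4.70 and from 4.17 to 7.03, and both stayed called. At P36 the difference was log2 0.18 ± 0.43 (adjusted p = 0.836) and the jejunum was higher in 3 of 4 mice.

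The smaller regional difference of Tnfsf13 at P36 gave an interaction of log2 -2.44 ± 0.72 (adjusted p = 0.0474). It was kept in 3 of the 16 fits without 1 library (those without P36 ileum replicate 1, P6 ileum replicate 4 or P6 jejunum replicate 3), and with the mouse as a block it was log2 -2.45 with an adjusted p of 0.0627. The Tnfsf13 count is also incomplete. A read-through gene of Tnfsf12 and Tnfsf13, Tnfsfm13, covers 1255 of its 1679 exon bases on the same strand (74.7%), and read pairs that fall on both genes are left out unless they are assigned to every gene. Tnfsfm13 itself had 1 count in the 16 libraries. Were all its counted pairs on the 424 bases that only Tnfsf13 covers, its P36 jejunum level would be 11.2 ± 2.53 CPM per kb. Over the whole exon length of Tnfsf13 it was 2.82 CPM per kb. Where the pairs lay was not measured.

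Tnfsf13b, which encodes BAFF (chr8:10006633-10035999, plus strand; 1698 bases of counted exon), changed less. At P6 it stood at 3.14, 3.12, 2.00 and 3.69 CPM in the jejunum and at 1.14, 1.16, 0.597 and 1.37 CPM in the ileum. At P36 it stood at 2.94, 1.99, 3.95 and 4.05 CPM in the jejunum and at 2.21, 1.64, 2.29 and 2.06 CPM in the ileum. The P6 ileum was the lowest group and overlapped with no other, while the jejunum overlapped between the ages. The jejunum was 2.78-fold higher than the ileum at P6 (log2 1.48 ± 0.31, adjusted p = 0.00217), and the 4 within-mouse differences lay between 1.35 and 1.59 on the log2 CPM scale. At P36 the difference was log2 0.65 ± 0.30 (adjusted p = 0.159), with the jejunum higher in 4 of 4 mice. With age Tnfsf13b rose 1.91-fold in the ileum (log2 0.94 ± 0.31, adjusted p = 0.0175), while the jejunal value was log2 0.11 ± 0.29 (adjusted p = 0.778). The interaction of log2 -0.82 ± 0.42 did not pass (adjusted p = 0.265). With only the P6 mice of stem L42150 the ileal rise was log2 0.72 with an adjusted p of 0.109.

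The receptors for these B cell cytokines were scarce. Tnfrsf13b (TACI) and Tnfrsf17 (BCMA) had at most 10 counts in any group and stayed under the filter. Tnfrsf13c, the BAFF receptor of B cells, had 0 counts in the P6 jejunum and 0.765, 0, 2.51 and 0.373 CPM in the P36 jejunum, where it was called higher than at P6 (adjusted p = 0.0154, and 0.0516 without P36 jejunum replicate 3). It stood at 0.0987, 0.0431, 0.0542 and 0.834 CPM in the P6 ileum and at 0.0553, 0.397, 2.00 and 3.17 CPM in the P36 ileum. Its highest jejunal and ileal values were in the libraries with the highest B cell marker sums of their groups, 81.8 and 64.7 CPM. All 7 B and plasma cell markers were higher at P36 in both segments. The part of B cells in the Tnfsf13b values was not tested.

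**Figure D4:**
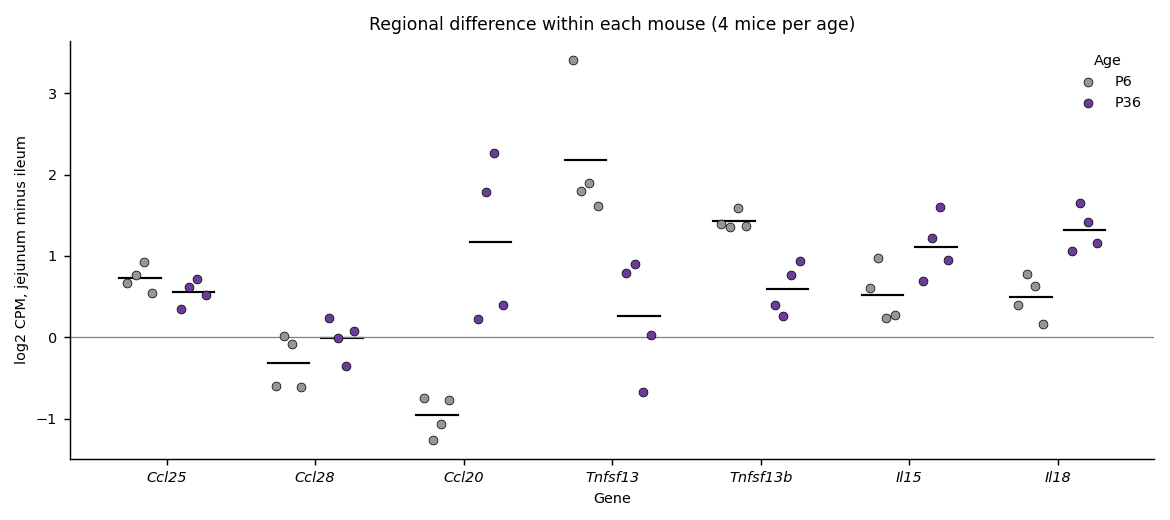
Jejunum-minus-ileum difference in log2 CPM (y axis, prior count 2) within each mouse for the 7 genes (x axis), with points for the 4 mice at P6 (grey) and P36 (purple) and a line for the mean. Ccl25, Tnfsf13b, Il15 and Il18 lie above 0 in all 8 mice, and Ccl20 lies below 0 in the 4 mice at P6 and above 0 in the 4 mice at P36.

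Il15 (chr8:82331624-82402586, minus strand; 1285 bases of counted exon) was highest in the P36 jejunum. At P6 it stood at 5.76, 9.73, 5.15 and 9.86 CPM in the jejunum and at 3.75, 4.91, 4.34 and 8.14 CPM in the ileum. At P36 it stood at 26.8, 24.7, 21.2 and 23.6 CPM in the jejunum and at 16.5, 10.5, 6.94 and 12.2 CPM in the ileum. The P36 jejunum was separate from the other 3 groups, which overlapped in order of level. With age Il15 rose 3.15-fold in the jejunum (log2 1.66 ± 0.29, adjusted p = 0.000199) and 2.18-fold in the ileum (log2 1.12 ± 0.30, adjusted p = 0.00429), and both calls were kept in all 16 fits without 1 library. The jejunum exceeded the ileum 2.09-fold at P36 (log2 1.06 ± 0.29, adjusted p = 0.0197), in 4 of 4 mice. This call was lost without P36 ileum replicate 2 (adjusted p = 0.0538), P36 ileum replicate 3 (0.0600) or P36 jejunum replicate 1 (0.0582), and without P36 jejunum replicates 1 and 3 together it was log2 1.10 with an adjusted p of 0.0898.

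At P6 the regional difference of Il15 was log2 0.53 ± 0.29 (adjusted p = 0.205), again in the direction of the jejunum in 4 of 4 mice. Without P6 ileum replicate 4, the library with the lowest epithelial sum, it was log2 0.82 and passed (adjusted p = 0.0377). The spread at P6 followed the mouse identifiers: in the jejunum the mice of stem L42150 had 9.73 and 9.86 CPM and those of stem L41800 had 5.15 and 5.76 CPM. In the ileum the values were 4.91 and 8.14 CPM against 3.75 and 4.34 CPM. The rise with age stayed called with the P6 mice of either stem alone, with log2 1.34 to 2.13 in the jejunum and 0.85 to 1.51 in the ileum over the 4 alternatives added after the data had been seen.

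Il15ra, the chain on which cells present IL-15, was higher in the jejunum at both ages. It stood at 10.8, 10.0, 11.8 and 12.2 CPM in the P6 jejunum and at 0.889, 2.20, 1.79 and 2.11 CPM in the P6 ileum. At P36 it stood at 19.2, 19.6, 17.9 and 18.4 CPM in the jejunum and at 13.7, 10.2, 9.03 and 11.3 CPM in the ileum. The segments were separate at both ages and the ages in both segments, with the P6 ileum by far the lowest. The jejunum was 6.39-fold higher at P6 (log2 2.67 ± 0.23, adjusted p = 5.68e-07) and 1.70-fold higher at P36 (log2 0.77 ± 0.21, adjusted p = 0.0185). The P36 call was lost without P36 ileum replicate 2 (adjusted p = 0.0518) or replicate 3 (0.0578). With age Il15ra rose 1.68-fold in the jejunum (adjusted p = 0.00649) and 6.29-fold in the ileum (adjusted p = 9.23e-08). The interaction of log2 -1.91 ± 0.30 passed (adjusted p = 0.000871) and was kept in all 16 fits without 1 library and with the mouse as a block.

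The signalling chains of the IL-15 receptor were low. Il2rb was between 0.111 and 6.51 CPM and passed in none of the comparisons. Il2rg was between 0.131 and 5.93 CPM and was higher at P36 in the jejunum (log2 3.90 ± 0.77, adjusted p = 0.000511). The highest Il2rb and Il2rg values, 6.51 and 5.93 CPM, were both in P36 jejunum replicate 3, where T cell markers were highest. Il2rb stood at 2.77 CPM in replicate 1 of that group and at 0.397 and 0.746 CPM in replicates 2 and 4. Il15 stood at 26.8 and 21.2 CPM in replicates 1 and 3 and at 24.7 and 23.6 CPM in replicates 2 and 4. The part of T cells in the values of Il15 and its receptor chains was not tested.

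Il18 (chr9:50565368-50581837, plus strand; 866 bases of counted exon) showed the largest rise of the 7 in the jejunum. At P6 it stood at 13.3, 18.1, 10.9 and 16.3 CPM in the jejunum and at 10.1, 10.6, 7.00 and 14.5 CPM in the ileum. The P36 levels were 166, 119, 120 and 155 CPM in the jejunum and 79.1, 37.9, 45.0 and 69.4 CPM in the ileum. Every P36 library lay above every P6 library, and at P36 the jejunum lay above the ileum without overlap. The rise was 9.53-fold in the jejunum (log2 3.25 ± 0.27, adjusted p = 6.20e-08) and 5.48-fold in the ileum (log2 2.45 ± 0.26, adjusted p = 1.16e-06). The jejunum exceeded the ileum 2.42-fold at P36 (log2 1.27 ± 0.25, adjusted p = 0.00243), in 4 of 4 mice. These 3 calls were kept in all 16 fits without 1 library, and the P36 regional call also without P36 jejunum replicates 1 and 3.

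Il18 was the member for which the pairing of the segments mattered most. At P6 the regional difference was log2 0.48 ± 0.25 (adjusted p = 0.187) without the block, and log2 0.50 with the mouse as a block, where it passed (adjusted p = 0.0311). The interaction was log2 0.80 ± 0.36 (adjusted p = 0.192) without the block, and log2 0.83 with it, where it passed (adjusted p = 0.0330). Within mice the log2 CPM difference lay between 0.17 and 0.77 at P6 and between 1.06 and 1.65 at P36. As for Il15, the P6 jejunum values of the stem L42150 mice (16.3 and 18.1 CPM) lay above those of the stem L41800 mice (10.9 and 13.3 CPM).

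**Figure D5:**
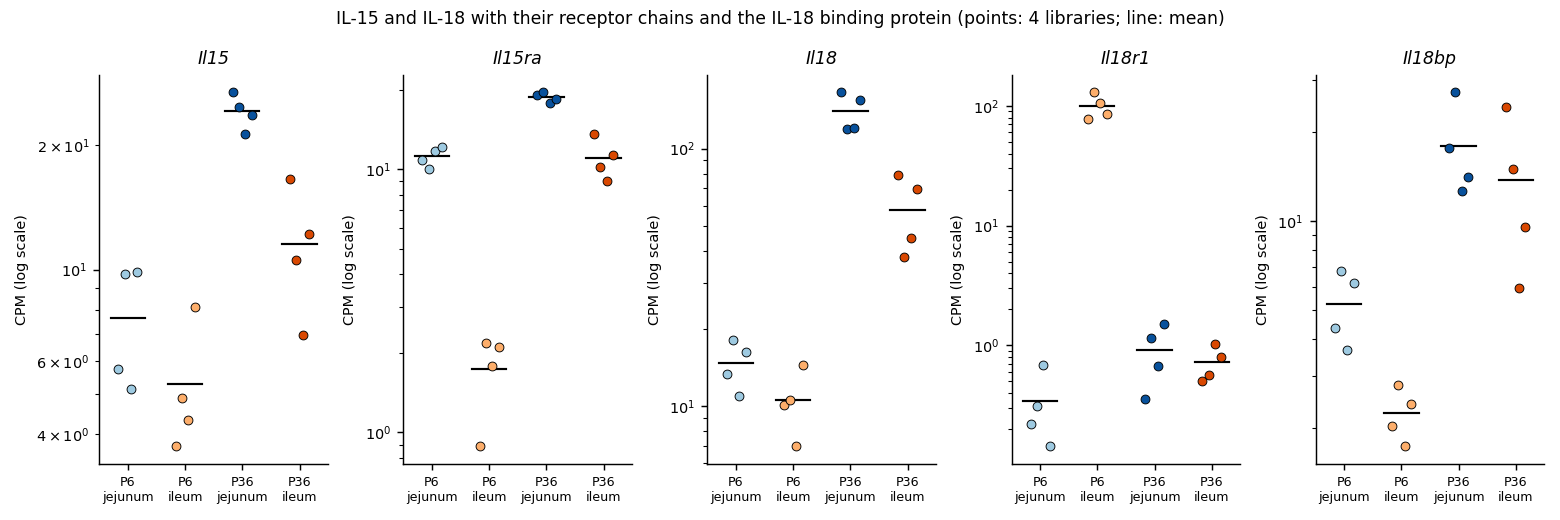
CPM (y axes, log scale, separate per panel) of Il15, Il15ra, Il18, Il18r1 and Il18bp in each of the 16 libraries by group (x axes), with points for the 4 libraries and a line for the mean. Il15ra is lowest in the P6 ileum, and Il18r1 lies between 77.7 and 130 CPM in the P6 ileum and at or below 1.49 CPM in the other 3 groups.

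Il18 had its lowest mean in the P6 ileum, where it overlapped with the P6 jejunum and was not called different from it in the main fit. The IL-18 receptor chain Il18r1 was highest in the P6 ileum. It stood at 77.7, 130, 105 and 85.9 CPM in the P6 ileum and at 0.218, 0.312, 0.683 and 0.144 CPM in the P6 jejunum. At P36 it ranged from 0.353 to 1.49 CPM in the jejunum and from 0.498 to 1.02 CPM in the ileum. The P6 ileum was thus separate from all other groups, and the P36 segments overlapped. The P6 jejunum-minus-ileum difference was log2 -8.20 ± 0.45 (adjusted p = 6.19e-09), the ileal change with age log2 -7.08 ± 0.42 (adjusted p = 1.66e-09) and the interaction log2 8.54 ± 0.60 (adjusted p = 3.13e-07), all kept in the 16 fits without 1 library. In the jejunum Il18r1 was higher at P36 by log2 1.46 (adjusted p = 0.0146), a call lost without P36 jejunum replicate 4 (adjusted p = 0.0598). The accessory chain Il18rap, which signalling needs, stayed under the filter and reached 2.75 CPM in 1 P6 ileum library and at most 0.689 CPM in the other 15. The T cell markers summed to between 5.53 and 16.4 CPM in the P6 ileum and to between 6.46 and 14.1 CPM in the P6 jejunum. The part of any cell type in the Il18r1 values was not tested.

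Il18bp, a secreted decoy that binds IL-18, rose with its ligand. Its mean level was 5.25 ± 1.47 CPM in the P6 jejunum, 2.24 ± 0.463 in the P6 ileum, 18.0 ± 6.59 in the P36 jejunum and 13.8 ± 8.04 CPM in the P36 ileum (SD, n = 4). It rose 3.43-fold in the jejunum (log2 1.78 ± 0.37, adjusted p = 0.000851) and 6.11-fold in the ileum (log2 2.61 ± 0.39, adjusted p = 3.72e-05). At P6 the jejunum was 2.33-fold higher (log2 1.22 ± 0.38, adjusted p = 0.0279), a call lost without P6 ileum replicate 1 (adjusted p = 0.0662) or 3 (0.0698) or without P6 jejunum replicate 2 (0.0796) or 4 (0.0693). At P36 the segments overlapped (log2 0.39 ± 0.36, adjusted p = 0.532). Over the whole list of 15 receptors and decoys, 8 passed the filter, of which 7 were higher at P36 in the jejunum, and 2 were higher and 1 lower at P36 in the ileum. Over all tested genes 24.7% were higher at P36 in the jejunum, and 25.5% were higher and 30.1% lower in the ileum. Ccr6 and Tnfrsf13c had 0 counts in the P6 jejunum and passed the filter through other groups. Their jejunal calls could therefore only be upward, and the count of 7 is no measure of the list.

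Genes of the inflammasome and of IL-18 processing moved in both directions with age. Casp1, the protease that cleaves the IL-18 precursor, was between 144 and 309 CPM in all 16 libraries and passed in neither age comparison (log2 0.06 ± 0.20 in the jejunum, adjusted p = 0.822; log2 -0.03 ± 0.20 in the ileum, adjusted p = 0.923). Of the 13 tested genes of this list, 6 were higher and 2 lower at P36 in the jejunum, and 5 were higher and 2 lower in the ileum. Over all tested genes 51.6% were called with age in the jejunum and 55.7% in the ileum, so the list was not set apart by its number of calls. Pycard, the adaptor of inflammasomes, rose in both segments (log2 1.21 ± 0.22 in the jejunum, adjusted p = 0.000285; log2 1.82 ± 0.23 in the ileum, adjusted p = 5.68e-06). The sensor gene Nlrp1b rose by log2 1.92 ± 0.31 in the jejunum (adjusted p = 7.21e-05) and 2.42 ± 0.31 in the ileum (adjusted p = 8.74e-06).

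The pore-forming Gsdmd was higher in the jejunum at both ages, by log2 1.88 ± 0.32 at P6 (adjusted p = 0.000412) and 1.11 ± 0.31 at P36 (adjusted p = 0.0223). Nlrp6, a sensor known from the intestinal epithelium, was higher in the jejunum at P6 (log2 1.27 ± 0.19, adjusted p = 0.000169) and rose with age in both segments, by log2 0.92 in the jejunum and 2.01 in the ileum. Its interaction was log2 -1.09 ± 0.27 (adjusted p = 0.0187). Naip1 and Naip2, sensor genes of a family with near-identical copies whose reads may be divided among them, were lower in the jejunum than in the ileum at P6 (log2 -0.84 ± 0.19, adjusted p = 0.00363, and log2 -1.24 ± 0.15, adjusted p = 1.54e-05). Naip1 fell with age in both segments (log2 -1.29 ± 0.19 in the jejunum, adjusted p = 3.20e-05, and -1.64 ± 0.19 in the ileum, adjusted p = 2.76e-06).

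Among 29 other chemokine genes, 9 passed the filter, and the 20 others, such as Ccl2, Cxcl1 and Cxcl13, did not. With age 4 of the 9 were higher and 2 lower in the jejunum, and 3 were higher and 4 lower in the ileum. Over all tested genes 24.7% were higher and 26.9% lower in the jejunum, and 25.5% and 30.1% in the ileum. Ccl6 and Ccl9 rose in both segments (log2 1.72 and 2.02 in the jejunum, adjusted p = 0.000111 and 0.000135; log2 1.51 and 1.53 in the ileum, adjusted p = 0.000333 and 0.00115). Cxcl11, a ligand of CXCR3, stood at 0 to 0.263 CPM in the P6 libraries and at 5.29 to 6.29 CPM in the P36 jejunum. Ccl24, a ligand of CCR3, fell in both segments (log2 -2.70 ± 0.41, adjusted p = 5.00e-05, and -4.38 ± 0.53, adjusted p = 4.31e-06) and was higher in the jejunum at both ages. Ccl5, a T cell chemokine, was 10.1 and 11.8 CPM in the T cell-rich P36 jejunum replicates 1 and 3 and at most 1.01 CPM in every other library.

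Of 21 other lymphocyte and myeloid cytokine genes, 14 were tested, of which 7 were higher and 5 lower at P36 in the jejunum, and 3 higher and 4 lower in the ileum. The shares over all tested genes were 24.7% higher and 26.9% lower in the jejunum, and 25.5% and 30.1% in the ileum. Il33, an alarmin, rose in the jejunum from between 0.840 and 2.20 CPM to between 41.3 and 63.0 CPM (log2 5.40 ± 0.62, adjusted p = 2.17e-06) and was log2 3.86 ± 0.56 higher there than in the ileum at P36 (adjusted p = 0.000211). Il1a had the reverse course, falling in the jejunum from between 19.8 and 33.7 CPM to at most 0.224 CPM (log2 -7.78 ± 0.58, adjusted p = 1.79e-08). Kitl, the ligand of the receptor Kit, rose in both segments (log2 1.44 ± 0.16, adjusted p = 1.40e-06, and 1.45 ± 0.16, adjusted p = 1.32e-06). Csf2 was higher in the jejunum at both ages, at 2.42 to 2.88 CPM against 0 to 0.111 CPM at P36 (log2 5.79 ± 0.83, adjusted p = 0.000177). Tnfsf10 (TRAIL) was log2 0.80 ± 0.20 higher in the P36 jejunum than in the P36 ileum (adjusted p = 0.0142).

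Markers of goblet, tuft and Paneth cells also mostly rose with age beside the 7 genes. The 7 goblet cell markers were all higher at P36 in both segments, as were the 5 tuft cell markers, and 3 of the 4 Paneth cell markers. The goblet sum rose from between 1754 and 4191 CPM at P6 to between 11533 and 23803 CPM at P36. P36 ileum replicate 3, the library with the highest Tnfsf13 (7.27 CPM) and Ccl28 (69.9 CPM) of its group, also had the highest Paneth sum, 14617 CPM against 4204 to 8416 CPM in the other P36 libraries, and the lowest P36 Il15 (6.94 CPM). Of the 7 epithelial markers, this library had the lowest P36 Epcam, Vil1 and Krt20 and the highest Krt8. Across P36 ileum replicates 1 to 4, Vil1 stood at 4487, 2318, 1381 and 2688 CPM, and Il15 at 16.5, 10.5, 6.94 and 12.2 CPM. Vil1 was not called between the segments at P36 (log2 0.54 ± 0.29, adjusted p = 0.237). The part of these cell types and of such epithelial differences in the values of the 7 genes was not tested.

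The genes whose log2 CPM over the 16 libraries was most like each member's were named by Pearson's r, as a description, since the libraries share their ages and segments. For Ccl25 they were Me2 (r = 0.993), Gpr160 (0.992) and Gm11545 (0.990), and for Ccl28 Clca3b (0.993), Atp10b (0.990) and Pdss2 (0.988). For Il18 they were Zc3h12d (0.987), Smpdl3b (0.985) and Atp1b1 (0.984), and for Il15 Ttll2 (0.987), Rwdd2b (0.972) and Cdk11b (0.968). For Tnfsf13 they were Mpc2 (0.976), Mrpl20 (0.972) and Cycs (0.972), and for Tnfsf13b Sra1 (0.923), Mrpl45 (0.921) and Lcmt1 (0.903). Ccl20 had the weakest likeness, with Prkch (0.872), Cpe (0.818) and Resp18 (0.806). Of the 13428 other tested genes, 527 reached an r of 0.9 with Ccl25, 617 with Ccl28, 398 with Il18, 187 with Tnfsf13, 152 with Il15, 4 with Tnfsf13b and 0 with Ccl20.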

How the data were processed

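The authors prepared stranded mRNA libraries (Kapa kit), used Trimmomatic 0.38 for trimming and STAR for alignment (mm10), and assigned read pairs to gene exons by featureCounts (Subread 1.6.3, reverse strand setting, UCSC annotation). The deposited values are raw counts, 1 file per library, with 24421 genes. The lowest library total was 12159237 and the highest 25947276; intervals and limits at 0 cover counting error only.

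Genes were filtered by filterByExpr on the 4 groups (13429 kept), scaled by TMM and fitted with edgeR 4.0.16 in R 4.3.3 by the quasi-likelihood method, with 16 libraries, 4 group means and no block. P-values were adjusted by Benjamini-Hochberg over all tested genes, and a call needed an adjusted p below 0.05. The SE is the log2 fold change divided by the square root of F. CPM use TMM factors, and log2 CPM a prior count of 2. The procedure was tested on simulated data with planted changes larger than most differences given here, so that test does not cover the smaller ones.

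The 7 members, the gene lists and the alternatives were chosen with earlier results of these data known. Named are the members, their receptors, up to 4 called genes with the smallest adjusted p per other list and comparison, markers, the 3 genes most like each member and genes that overlap one. Deviations from the group mean correlated within mice (r from 0.157 to 0.391 at P6 and 0.240 to 0.347 at P36 over all tested genes, means of -0.106 and -0.101 between mice). Replicates differed by more than sampling noise (chi-square per gene of 11.0 to 225 over 24 pairs). Alternatives were median-of-ratios scaling, library totals, DESeq2 1.42.0, 2 other filters, the 8 compared libraries alone, sex as a covariate, the mouse as a replicate block, a robust prior, a log2 fold change beyond 2 and each library left out. After seeing the data, the P6 mice of either identifier stem, and fits without P6 ileum replicates 2 and 4 or without P36 jejunum replicates 1 and 3, were added. Promoter windows and gene starts were matched by symbol to RefSeq (GRCm38.p6), which held a window for 6 of the 7 genes.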

Additional observations from a re-analysis of the deposited data

Results flagged for a closer look

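In 4 of the 60 groups of 4 libraries checked (15 genes, the 7 members and their 8 tested receptors and decoys, in 4 groups), 1 library lay apart from the other 3 by more of the range than Dixon's 95% critical value, which chance alone passes in about 1 of 20 groups. For Ccl20 these were P36 jejunum replicate 3, the highest of its group at 11.7 CPM, and P36 ileum replicate 2, the lowest of its group at 0.567 CPM. For Tnfsf13 it was P36 ileum replicate 3, at 7.27 CPM. For Tnfrsf13c, the BAFF receptor, it was P6 ileum replicate 4, at 0.834 CPM, which rests on 17 counts.

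The difference between the segments changed with age for 9 of the 36 genes checked, by the interaction term of the same fit, beside 8.69% of all tested genes. Some of the 36 had been named because they were called, so the share is no measure of the lists. The members among them were Ccl20 with a log2 interaction of 2.29 and Tnfsf13 with -2.44, and both calls were lost in most fits without 1 library. The IL-15 and IL-18 receptor chains Il15ra (-1.91) and Il18r1 (8.54) were kept in all 16 such fits. In the inflammasome list the interaction was 1.15 for Naip2 and -1.09 for Nlrp6. In the cytokine list it was 4.04 for Tgfb3, 4.35 for Csf1 and 4.64 for Il33, of which Csf1 and Tgfb3 were highest in P6 ileum replicate 2, the library with stromal markers, at 4.31 and 1.38 CPM.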

How the results depend on the processing

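Depth limits the values of Tnfsf13 at P6, Tnfsf13b, Ccl20 and most receptors, which rest on few counts per library. Each mouse had 1 age, so the block serves only the comparisons of segments and the interaction.

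The number of the 7 genes called at P6 between the segments was 3, and became 5 with scaling by library totals, which moved the median of all genes by -0.29 on the log2 scale and added Ccl28 (log2 -0.63) and Ccl20 (-1.25) as lower in the jejunum. It became 1 with a log2 fold change beyond 2 as well, under which the P36 count of 3 became 0 and the ileal age count of 7 became 4. Without P36 jejunum replicates 1 and 3 the P36 count was 1. The interaction count of 2 was 1 with library totals, 0 without a filter on low counts, 1 with sex as a covariate, 1 with the P6 mice of stem L41800, 0 with those of stem L42150, 1 without P6 ileum replicates 2 and 4 and 0 without P36 jejunum replicates 1 and 3. Leaving out 1 library in turn gave 3 to 4 calls at P6, 2 to 4 at P36, 5 in each fit for age in the jejunum, 7 in each fit for age in the ileum, and 0 to 2 for the interaction. By library totals the jejunal mean of Ccl25 was 105 CPM at P6, and 538 CPM at P36. With the mouse as a replicate block the calls over all genes were 3622 in place of 3484 at P6, 2437 in place of 2163 at P36 and 1294 in place of 1167 for the interaction. Among the members the block added Il18 at P6 (log2 0.50), Ccl20 at P36 (1.21) and the interaction of Il18 (0.83), and lost that of Tnfsf13 (-2.45). The cause of these changes was not tested.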

Other observations

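Csf1r, the receptor of the macrophage growth factor CSF1 and of IL-34, was chosen after its values were seen. It stood at 152 to 498 CPM in the 8 P6 libraries and at 0.608 to 3.55 CPM in the 8 P36 libraries. It belongs to a list of 12 macrophage and dendritic cell markers, 9 of them tested. With age 4 of the 9 were higher and 2 lower in the jejunum, and 1 was higher and 2 lower in the ileum. The shares over all tested genes were 24.7% higher and 26.9% lower in the jejunum, and 25.5% and 30.1% in the ileum. Cd68 fell in both segments with Csf1r (log2 -1.84 in the jejunum and -2.52 in the ileum), Itgam rose in both (3.92 and 3.67), and Adgre1 and C1qa were at most 4.39 CPM in any library. The part of these cells in the Csf1r values was not tested.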
